A study of Mus musculus with 6 samples.

Results

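The chemokine system was described in 6 Smart-seq2 libraries of mouse epidermal cells. The 62 genes were taken by name from the 54532 rows of the deposited count table. They were 39 ligands (the Ccl and Cxcl genes, Xcl1 and Cx3cl1) and 23 receptors (the Ccr and Cxcr genes, Xcr1, Cx3cr1 and the 4 atypical receptors Ackr1 to Ackr4). The rule uses gene names and no measured value, although it was set with earlier results of these data known. The dorsal skin came from male and female C57BL/6 mice that were 4 weeks old, and the epidermis was separated and dissociated enzymatically. For the 3 NCAM-enriched libraries, cells were held on magnetic beads against PSA-NCAM, a surface molecule of Merkel cells, and then sorted for PSA-NCAM staining. For the 3 bulk skin libraries, cells were not selected for NCAM, so this group can contain Merkel cells. Each library was made from 500 sorted DAPI-negative events, and the labels name no transgene or treatment.

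Chemokines are small secreted proteins that direct the movement of leukocytes. They bind G protein-coupled receptors on the responding cell, which signal through inhibitory G proteins and reorganise the cytoskeleton. Atypical receptors bind chemokines without this signalling and remove or redistribute them. In the epidermis, keratinocytes make chemokines, and the resident leukocytes, Langerhans cells and dendritic epidermal T cells, carry many of the receptors. Merkel cells are the touch-sensing neuroendocrine cells of the basal epidermis.

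Library totals ran from 1343190 to 4481830 counts, so that 1 count was worth 0.216 to 0.773 normalised CPM (reads scaled to library size with TMM factors). The NCAM-enriched libraries carried Merkel cell genes. Of 11 Merkel cell markers, all tested, 5 were called higher by edgeR and 11 by DESeq2, and Krt20, a keratin of Merkel cells, had 185, 136 and 70.1 CPM against 14.6, 15.3 and 12.1 in bulk skin (edgeR adjusted p = 0.0196). The study named some of these markers from these libraries, so they are no independent evidence. The NCAM-enriched libraries also carried suprabasal keratinocyte genes, of which 9 of 13 were called higher. Of 10 basal keratinocyte markers, 0 were called by edgeR or DESeq2 (0 at an unadjusted p under 0.05). NCAM-enriched library 3 stood apart in basal genes, which summed to 32682 CPM there against 10661 and 8933 in libraries 1 and 2. Bulk skin had 13406 to 17435 CPM. Library 3 also had the lowest sum of Merkel cell markers, 498 CPM against 1707 and 1771, where bulk skin had 143 to 191 CPM. NCAM-enriched library 2 stood apart from the other NCAM-enriched libraries in fibroblast genes. The 13 fibroblast and vascular markers summed to 33085 CPM there, and Col1a1, Col1a2 and Col3a1 made up most of this. The sums were 1199 and 82.6 CPM in NCAM-enriched libraries 1 and 3. Bulk skin also carried these genes, with sums of 14510, 19262 and 11251 CPM. In NCAM-enriched library 2 the vascular markers Cdh5, Kdr, Rgs5 and Lyve1 were at 0. Pecam1 was at 10.8 CPM there, against 12.2 and 13.9 in NCAM-enriched libraries 1 and 3. Prox1 lay above every bulk skin library in all NCAM-enriched libraries, library 2 included, and Acta2 lay below. Cdh5, Rgs5 and Lyve1 were at 0 in all NCAM-enriched libraries. Rgs5 and Lyve1 had only 10 and 6 counts in bulk skin, all in library 2, so their zeros say little. Of the 10 fibroblast and vascular markers tested, edgeR called 0 (3 at an unadjusted p under 0.05) and DESeq2 called 1 higher and 1 lower. NCAM-enriched library 1 stood apart in mast cell genes. The 12 mast cell and neutrophil markers summed to 1954 CPM there against 22.4 and 19.01, all of it from Mcpt4, Cpa3, Cma1, Tpsb2 and Kit, with the neutrophil markers at 0.

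Most chemokine receptors of leukocytes were close to 0 in the NCAM-enriched libraries, and the abundant ligands Ccl27a, Cxcl14 and Cxcl16 were counted in every library of both groups. Counts were found for 29 of the 39 ligands, 19 of them in the NCAM-enriched libraries and 29 in bulk skin. For receptors these numbers were 20 of 23, 15 and 19. Over all genes they were 27884 of 54532, 23518 and 22678. The filter on low counts left 15 ligands and 13 receptors for testing. The threshold for a call was an adjusted p of 0.05. The edgeR quasi-likelihood test called 4 ligands lower (Xcl1, Ccl2, Ccl11 and Ccl4), where 1.55% of all 13157 tested genes were lower, and called 6 receptors lower (Ccr8, Ccr2, Xcr1, Cx3cr1, Ackr3 and Ccr6). No ligand or receptor was called higher by edgeR, where 1.04% of all genes were, and none by DESeq2, where 5.02% were, and 0 were higher at an unadjusted p under 0.05. DESeq2 called 7 ligands and 6 receptors lower, beside 7.05% of all genes. The NCAM-enriched libraries all lay below the bulk skin libraries in 8 tested ligands and 7 tested receptors, beside 19.3% of all genes, and all above in none, beside 11.1%. None of the 10 calls was made without bulk skin library 1, and only that of Ccr8 without bulk skin library 2 or 3, while those of Ackr3, Ccl11, Ccl4 and Ccr6 were lost without NCAM-enriched library 1 and all 10 were made without NCAM-enriched library 2 or 3. The median log2 fold change was -2.23 over the tested ligands, -2.50 over the tested receptors and -0.07 over all tested genes. A gene that is high in bulk skin only passes the filter through that group, so these shares describe the tested genes and not all 62. In such bulk samples, fewer cells of a type and less RNA per cell cannot be told apart.

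**Figure D1:**
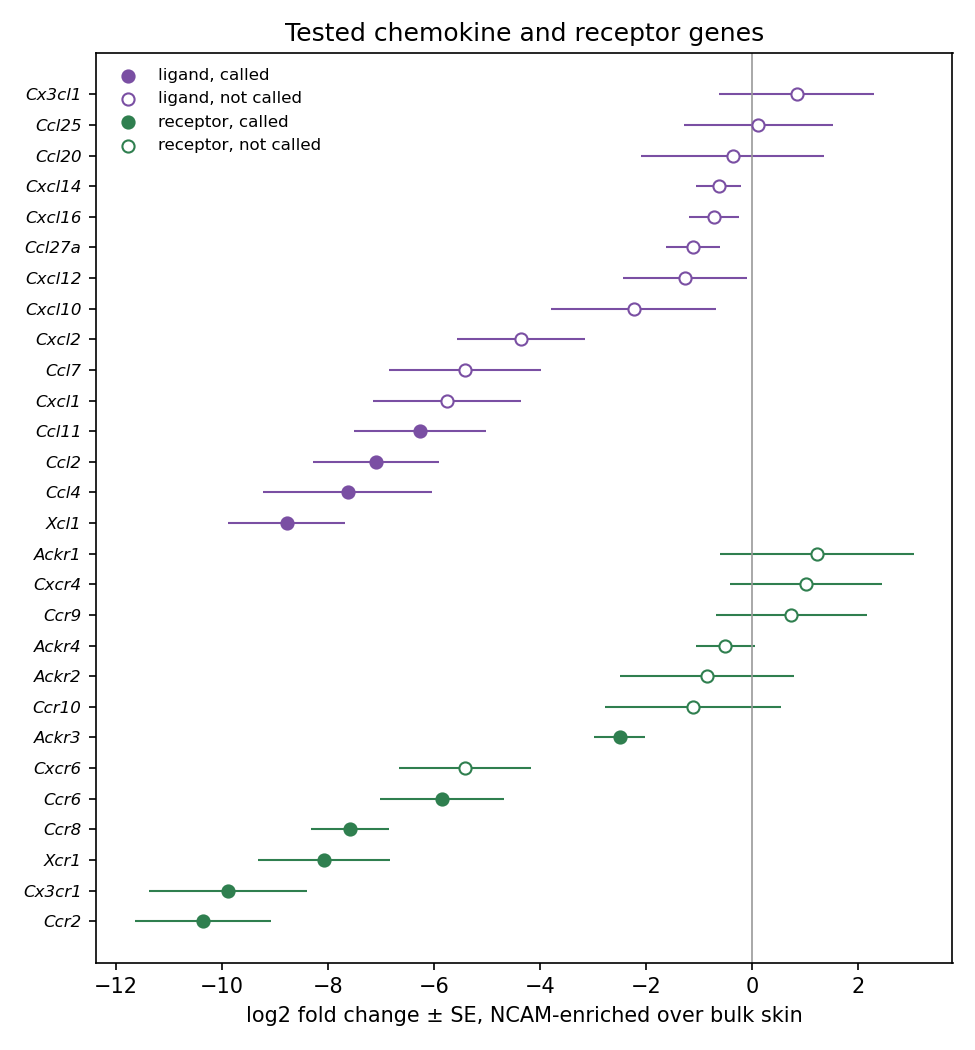
The log2 fold change (x axis, NCAM-enriched over bulk skin, ± SE from edgeR, 3 libraries a group) of the 15 tested ligands and 13 tested receptors, filled where called. The 10 called genes all lie left of 0. Positions of genes with 0 to 3 counts in the NCAM-enriched libraries, Ccr2 and Cx3cr1 among them, depend on the prior count of the fit and are no measure of size.

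Among the ligands, Ccl27a had the highest level per length in bulk skin (342 CPM per kb of exon, against 249 for Cxcl14), and Cxcl14 had it in the NCAM-enriched libraries (161 against 158). Ccl27a is the keratinocyte chemokine that attracts skin-homing T cells through Ccr10. It had 261, 217 and 649.8 CPM in the NCAM-enriched libraries and 1098, 557 and 783 CPM in bulk skin. NCAM-enriched library 3 lay within the range of bulk skin and the other two lay below it. The means were 376 ± 238 and 813 ± 272 CPM (SD, n = 3), with a log2 fold change of -1.11 ± 0.51 (SE; edgeR adjusted p = 0.287). Without NCAM-enriched library 3 it was called, with an edgeR adjusted p = 0.0425. Of the 50-base stretches in its transcripts (the read length), 45.0% also occur in transcripts of other genes, so its level is uncertain. Its near copies Gm13306 and Ccl27b had 3 counts and 0 counts in all.

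Cxcl14, a chemokine made constitutively by epithelia, had 382, 164 and 337 CPM against 559.8, 453 and 353 CPM. The groups overlapped, and the log2 fold change was -0.63 ± 0.42 (edgeR adjusted p = 0.475). Cxcl16, a membrane-bound chemokine that binds Cxcr6, had 40.4, 94.3 and 112 CPM against 102, 131 and 173 CPM. Here too the ranges overlapped, with a log2 fold change of -0.72 ± 0.47 (edgeR adjusted p = 0.467). Of its exonic bases, 18.3% are shared with Zmynd15, which had 7 counts in the NCAM-enriched libraries and 169 in bulk skin. Cxcl12, the stromal ligand of Cxcr4 and Ackr3, was at 0, 46.4 and 29.2 CPM against 50.9, 84.7 and 45.8 CPM and was not called (edgeR adjusted p = 0.625).

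The 4 ligands that were called lower are products of lymphocytes or recruit myeloid cells and eosinophils. Xcl1, which T and NK cells secrete and which acts on Xcr1, had 0, 0.773 and 0 CPM in the NCAM-enriched libraries and 75.8, 58.2 and 135 CPM in bulk skin. This was 1 count against 1007, a pooled ratio of 587 (95% exact interval 105 to 23209, counting error only; edgeR adjusted p = 0.00939). The ratio was 278 (49.8 to 11002) without NCAM-enriched library 3. Without library 2, which held the count, Xcl1 was at least 158-fold lower, with the group set to a floor of 3 counts. Gm20743, which shares 18.7% of the exonic bases of Xcl1, had 0 counts against 116. Ccl4, an inflammatory chemokine of lymphocytes and myeloid cells, had 0.531, 0 and 0 CPM against 7.76, 25.1 and 86.6 CPM. Its bulk skin libraries were far apart, but all lay above every NCAM-enriched library, at a pooled ratio of 266 (47.6 to 10545; edgeR adjusted p = 0.0457). The ratio was 126 (22.6 to 4999) without NCAM-enriched library 3 and 120.4 (21.3 to 4789) without bulk skin library 3. Ccl4 was at least 63.9-fold lower without NCAM-enriched library 1.

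Ccl2, which recruits monocytes through Ccr2, had 0.531, 0.773 and 0 CPM against 27.0, 49.3 and 81.7 CPM. The pooled ratio was 179 (49.3 to 1479, edgeR adjusted p = 0.0225). It was 84.7 (23.3 to 701) without NCAM-enriched library 3 and 288 (51.6 to 11406) without library 2. Ccl11, the eosinophil attractant, had 0.531, 1.55 and 0 CPM against 29.2, 41.7 and 67.2 CPM. In both genes every bulk skin library exceeded every NCAM-enriched library. For Ccl11 the pooled ratio was 103 (35.2 to 503, edgeR adjusted p = 0.0385). It was 49.0 (16.7 to 238) without NCAM-enriched library 3 and 250.2 (44.7 to 9901) without library 2. Ccl7, a neighbour of Ccl2 and Ccl11 on chromosome 11 and another ligand of Ccr2, had 2.66, 0 and 0 CPM against 34.5, 49.1 and 31.3 CPM. It was not called by edgeR (adjusted p = 0.0783) and was called by DESeq2 (adjusted p = 0.000238). Without NCAM-enriched library 1, 2 or 3 edgeR called it (adjusted p = 0.0369, 0.0419 and 0.0474).

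The neutrophil attractants Cxcl1 and Cxcl2 lay on the same side. Cxcl2 had 0.531, 0 and 4.54 CPM against 31.4, 42.2 and 45.0 CPM, and Cxcl1 had 1.06, 0 and 0.284 CPM against 6.52, 42.4 and 31.8 CPM. The groups did not overlap in either gene. Neither was called by edgeR (adjusted p = 0.0850 for Cxcl2 and 0.0661 for Cxcl1), and both were called by DESeq2 (adjusted p = 0.000895 and 0.000408). By edgeR, Cxcl2 was called without NCAM-enriched library 2 or 3 (adjusted p = 0.0364 and 0.0236) and Cxcl1 without library 2 (adjusted p = 0.0411). Cxcl3, a close relative encoded beside them, had no count in any library.

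The sequence before the start of these 3 genes is shown because they hold the same match to a motif of NF-kB, the factor that induces many chemokine genes. The stretches are the 120 bases before the RefSeq start (GRCm38.p6, plus strand), at chr5:90891125-90891244 for Cxcl1, chr5:90903779-90903898 for Cxcl2 and chr5:90785981-90786100 for Cxcl3, with the match to GGGANNTTCC, on both strands and overlapping itself, in capitals.
Cxcl1: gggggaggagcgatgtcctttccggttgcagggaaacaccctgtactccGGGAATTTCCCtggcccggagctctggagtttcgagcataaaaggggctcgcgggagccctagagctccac
Cxcl2: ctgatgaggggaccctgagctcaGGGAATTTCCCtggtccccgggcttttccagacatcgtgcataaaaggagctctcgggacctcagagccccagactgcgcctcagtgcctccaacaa
Cxcl3: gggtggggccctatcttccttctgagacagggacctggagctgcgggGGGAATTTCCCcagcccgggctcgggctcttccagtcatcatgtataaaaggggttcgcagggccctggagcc
The motif was found, within 250 bases before the start, in 5 of the 27 ligands with a promoter entry (Ccl1, Cxcl1, Cxcl2, Cxcl3 and Cxcl10), or 18.5%, in 1 of 19 receptors (Ccr3), and in 1.36% of 27025 genes. The match is a description of the letters. Of these 5 ligands, Cxcl3 was not counted, so that the same letters stood before genes with and without counts.

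Cxcl10 and Cxcl9, ligands of Cxcr3 that interferon induces, differed in their spread. Cxcl10 had 0, 0 and 17.6 CPM against 23.3, 38.9 and 24.7 CPM, with no overlap, and was not called (log2 fold change -2.23 ± 1.56, edgeR adjusted p = 0.500). All of its 62 NCAM-enriched counts were in library 3, and without that library it was called lower (edgeR adjusted p = 0.0293). Cxcl9 did not pass the filter, with 0, 0 and 0.284 CPM against 0.621, 53.6 and 115 CPM. Its first bulk skin library was close to the NCAM-enriched libraries and the other two were far above them.

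Several ligands rested on 1 library. Ccl1, the ligand of Ccr8, had 0.310, 129 and 0 CPM in bulk skin, so that 99.8% of its 596 counts were in library 2, and no count in the NCAM-enriched libraries. Cx3cl1, the membrane-bound ligand of Cx3cr1, had 6.91, 0 and 95.9 CPM against 7.45, 36.3 and 14.0 CPM, and 96.3% of its 351 NCAM-enriched counts were in library 3. It was not called (log2 fold change 0.84 ± 1.47, edgeR adjusted p = 0.822). Ccl22, a ligand of Ccr4, had 0, 18.2 and 2.47 CPM in bulk skin and no count in the NCAM-enriched libraries, and neither Ccl1 nor Ccl22 passed the filter.

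Other T cell and myeloid ligands were counted mainly in bulk skin and were not tested. Ccl5, a T cell chemokine, had no NCAM-enriched count against 1.55, 36.5 and 34.3 CPM. Ccl3, an inflammatory chemokine related to Ccl4, had 0, 0.773 and 0 CPM against 6.21, 22.7 and 0.823 CPM. Ccl9, a myeloid chemokine, had no NCAM-enriched count against 10.9, 0.432 and 23.3 CPM. Its relative Ccl6 had 0.531, 0 and 3.12 CPM against 24.2, 2.81 and 14.5 CPM, and its groups overlapped. The groups of Ccl5, Ccl3 and Ccl9 were apart by few counts. The lowest bulk skin library held 5 counts of Ccl5 and 2 of Ccl9. For Ccl3 it held 3 counts (0.823 CPM), where NCAM-enriched library 2 held 1 (0.773 CPM). Ccl17, a ligand of Ccr4, had no NCAM-enriched count and 0, 7.78 and 7.40 CPM in bulk skin.

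Ccl20 and Ccl25 were low in both groups. Ccl20, the ligand of Ccr6, had 6.91, 0 and 2.84 CPM against 4.04, 0 and 8.77 CPM (edgeR adjusted p = 0.9404). Ccl25, the ligand of Ccr9, had 19.7, 0 and 7.09 CPM against 4.35, 14.3 and 6.03 CPM (edgeR adjusted p = 0.976). The groups overlapped in both genes. Of the other ligands, Cxcl13 had 26 counts, Cxcl17 13, Ccl8 12, Cxcl11 6 and Ccl28 1, all in bulk skin, and Ccl12 had 5 counts in the NCAM-enriched libraries and 1 in bulk skin. Ccl19, Ccl21a, Ccl21b, Ccl21c, Ccl24, Ccl26, Ccl27b, Cxcl3, Cxcl5 and Cxcl15 had none.

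**Figure D2:**
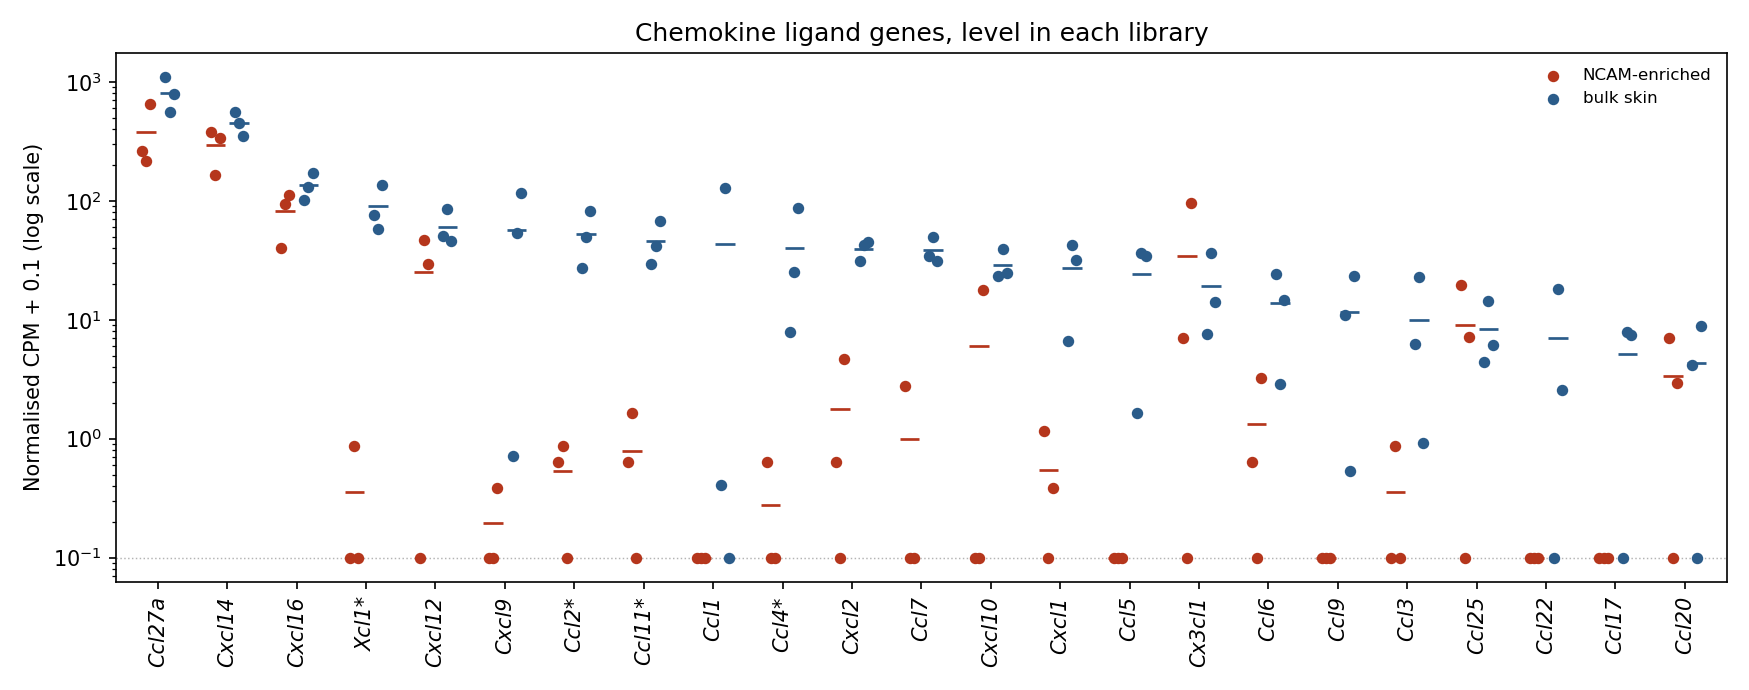
The level of the 23 ligands named with values, as normalised CPM + 0.1 on a log axis, 1 point per library and a bar at the mean of each group (asterisk, called lower by edgeR). Points on the dotted line are at 0. Ccl27a, Cxcl14 and Cxcl16 are high in all 6 libraries, and Xcl1, Ccl2, Ccl11 and Ccl4 are separated between the groups.

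Summed levels, which were not tested, show the receptors as a whole. Summed over the 19 typical receptors, the level was 24.4, 38.6 and 36.3 CPM in the NCAM-enriched libraries and 862, 829 and 826 CPM in bulk skin. The 4 atypical receptors summed to 132, 294 and 194 CPM against 334, 347 and 260 CPM, so that their second NCAM-enriched library lay within the range of bulk skin. The 39 ligands summed to 726, 525 and 1259 CPM against 2107, 1905 and 2086 CPM.

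Ccr8, which dendritic epidermal and other skin T cells carry, was the receptor with the highest level per length in bulk skin, at 159 CPM per kb of exon. It had 0.531, 0 and 1.70 CPM in the NCAM-enriched libraries and 219, 168 and 175 CPM in bulk skin. The bulk skin libraries were close to each other and far above all others, with a log2 fold change of -7.59 ± 0.74 (edgeR adjusted p = 0.00353). The pooled fold was 177, and 586 without NCAM-enriched library 3, which held 6 of its 7 NCAM-enriched counts. It was called under 13 of 14 alternatives, more than any other member, and just missed the threshold without bulk skin library 1.

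Cxcr6, the receptor of Cxcl16 on T cells, had 0, 0 and 15.3 CPM against 243, 221 and 279.9 CPM. It had the largest receptor count in bulk skin, and every bulk skin library was far above the NCAM-enriched libraries, whose 54 counts were all in library 3. It was not called by edgeR (log2 fold change -5.41 ± 1.25, adjusted p = 0.0581) or by DESeq2 (adjusted p = 0.0582), and was called by limma-voom (adjusted p = 0.00427). EdgeR called it without NCAM-enriched library 2 (adjusted p = 0.0237) or 3 (adjusted p = 0.00318). Ccr6, the receptor of Ccl20, had 0, 0 and 9.65 CPM against 233, 248 and 181 CPM. Its 34 NCAM-enriched counts were also all in library 3, and it was called (log2 fold change -5.85 ± 1.17, edgeR adjusted p = 0.0395). The pooled fold was 43.9, and Ccr6 was at least 236-fold lower without library 3.

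Xcr1, the receptor of Xcl1 on cross-presenting dendritic cells, had 0, 0.773 and 0 CPM against 39.1, 53.4 and 76.8 CPM. This was 1 count against 653, a pooled ratio of 381 (68.1 to 15058; edgeR adjusted p = 0.0178). The ratio was 180.4 (32.3 to 7138) without NCAM-enriched library 3, and Xcr1 was at least 102-fold lower without library 2. Ccr2, the monocyte receptor of Ccl2 and Ccl7, had no count in the NCAM-enriched libraries and 61.2, 40.4 and 60.3 CPM in bulk skin. Against the floor of 3 counts it was at least 117-fold lower (edgeR adjusted p = 0.0172), and at least 55.6-fold lower without NCAM-enriched library 3. Cx3cr1, the receptor of Cx3cl1 on myeloid cells, had no count against 30.4, 59.4 and 27.1 CPM and was at least 91.7-fold lower (edgeR adjusted p = 0.0266), and at least 43.5-fold lower without that library. In these 3 genes no NCAM-enriched library reached the lowest bulk skin library.

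The promoters of 3 leukocyte receptors are shown because a match to TGTGGT, the core motif of RUNX factors, was found before 7 of 19 receptors with an entry (36.8%: Ackr3, Ccr1, Ccr1l1, Cx3cr1, Cxcr1, Cxcr3 and Cxcr6), before 4 of 27 ligands (14.8%) and before 15.9% of 27025 genes. RUNX factors act in blood cell development. The 120 bases before the RefSeq start (GRCm38.p6) are given in the direction of the gene, with the match, here on the opposite strand, in capitals. They lie at chr9:123806357-123806476 on the plus strand for Cxcr6, chr9:120068297-120068416 on the minus strand for Cx3cr1 and chrX:101734148-101734267 on the minus strand for Cxcr3.
Cxcr6: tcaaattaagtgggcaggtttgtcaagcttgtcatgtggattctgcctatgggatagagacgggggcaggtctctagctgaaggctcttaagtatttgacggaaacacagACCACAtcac
Cx3cr1: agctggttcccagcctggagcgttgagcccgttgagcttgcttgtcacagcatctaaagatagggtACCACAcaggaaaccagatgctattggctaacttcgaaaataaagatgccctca
Cxcr3: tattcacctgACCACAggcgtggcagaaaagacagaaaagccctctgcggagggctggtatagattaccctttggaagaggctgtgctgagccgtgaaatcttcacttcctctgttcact
Cxcr6, Cx3cr1 and Cxcr3 were counted in every bulk skin library. Ccr1l1, with the same letters, had 1 count in all and Cxcr1 had none.

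The typical receptors at low levels gave no call. Cxcr3, the T cell receptor of Cxcl9 and Cxcl10, had no NCAM-enriched count against 20.5, 12.97 and 1.65 CPM and was not tested. Cxcr4, the receptor of Cxcl12, had 6.38, 30.1 and 0.284 CPM against 4.66, 2.81 and 10.4 CPM, with its highest value in NCAM-enriched library 2 (edgeR adjusted p = 0.773). Ccr10, the receptor of Ccl27a, had 5.85, 0 and 0 CPM against 3.73, 2.38 and 6.58 CPM (edgeR adjusted p = 0.788). The groups overlapped in Cxcr4 and Ccr10.

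Ccr9, the receptor of Ccl25, had 3.19, 7.73 and 3.69 CPM against 0, 4.97 and 3.56 CPM (edgeR adjusted p = 0.841), and other genes overlap 21.5% of its exons. Ccr4, the receptor of Ccl17 and Ccl22, was not tested and had 8.50, 0 and 3.97 CPM against 0.931, 0 and 0.548 CPM. Its 30 counts against 5 went the opposite way to most receptors, but library 2 of both groups was at 0. Ccr7, which guides dendritic cells to lymph nodes, had 0 counts against 55. Ccr1 had 0 counts against 24, Cxcr2 2 against 2 and Ccr1l1 1 against 0, and Ccr3, Cxcr1 and Cxcr5 had none.

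Of the atypical receptors, only Ackr3 was called by edgeR. Ackr3, which takes up Cxcl12, was counted in every library, with 14.9, 19.3 and 34.1 CPM against 129, 149 and 109.9 CPM. The groups were apart, with a log2 fold change of -2.50 ± 0.48 (edgeR adjusted p = 0.0341). Ackr4, which removes Ccl19, Ccl21 and Ccl25, had 117, 26.3 and 124 CPM against 142, 132 and 107 CPM. NCAM-enriched libraries 1 and 3 lay within the range of bulk skin and it was not called (log2 fold change -0.51 ± 0.55, edgeR adjusted p = 0.690).

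Ackr1, a receptor of red cells and of venular endothelium, had 0, 249 and 0 CPM against 42.5, 35.0 and 28.0 CPM. All 322 NCAM-enriched counts were in library 2, also the NCAM-enriched library with the high fibroblast genes, and the source of these counts was not tested. Its edgeR adjusted p = 0.786 became 0.00599, with a lower level in the NCAM-enriched libraries, when that library was left out. Cadm3, which shares 25.7% of the exonic bases of Ackr1, had 99, 88 and 4 counts in the NCAM-enriched libraries and 86, 171 and 99 in bulk skin. Ackr2, which scavenges inflammatory CC chemokines, had 0, 0 and 35.8 CPM against 19.9, 31.3 and 14.5 CPM (edgeR adjusted p = 0.845), with all 126 NCAM-enriched counts in library 3. Without that library it was called lower (edgeR adjusted p = 0.0370).

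**Figure D3:**
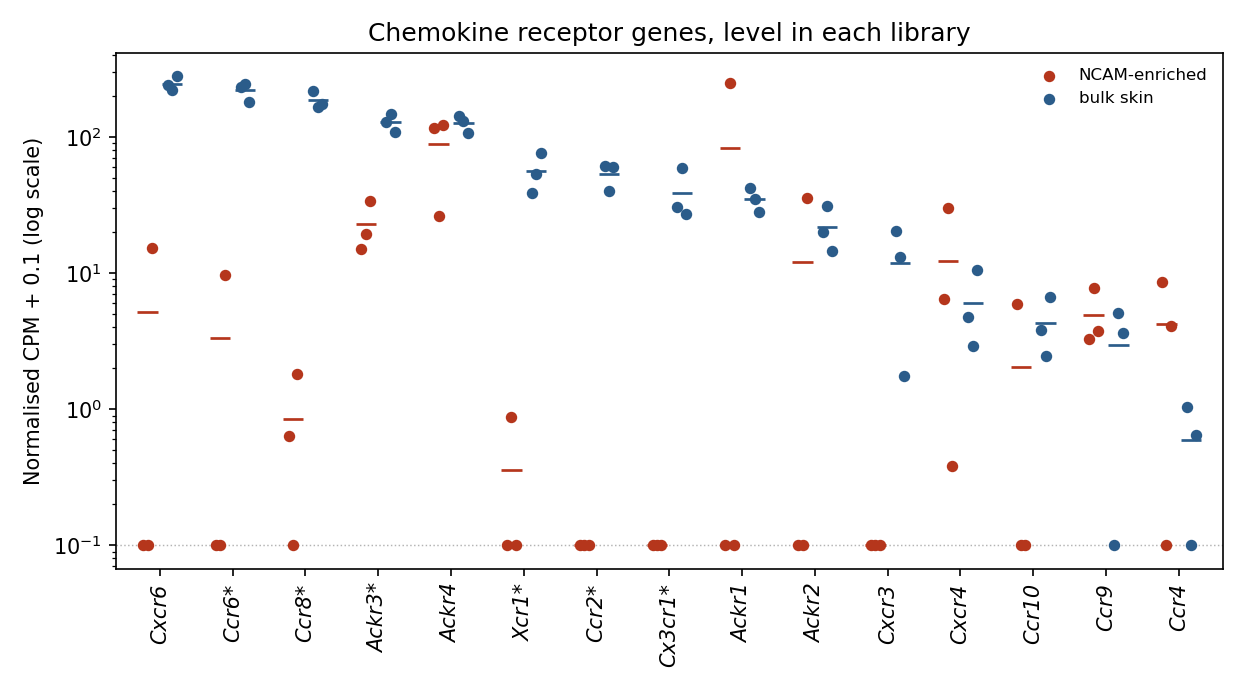
The level of the 15 receptors named with values, as normalised CPM + 0.1 on a log axis, 1 point per library and a bar at the mean of each group (asterisk, called lower by edgeR). Points on the dotted line are at 0. Cxcr6, Ccr6 and Ccr8 are at 168 CPM or more in every bulk skin library and at most 15.3 CPM in the NCAM-enriched libraries, and Ackr4 is high in both groups.

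Of 35 known ligand and receptor pairs, both partners were counted in every bulk skin library in 13, among them Xcl1 with Xcr1, Ccl2 with Ccr2, Cxcl16 with Cxcr6, Cx3cl1 with Cx3cr1 and Ccl27a with Ccr10. In the NCAM-enriched libraries this held for 0 pairs. No share over other gene pairs was computed, and NCAM-enriched library 2 had the lowest total of all libraries, 1343190 counts. In these libraries Cxcl16 had 592 counts beside 54 for Cxcr6, and Ccl27a had 3062 beside 11 for Ccr10.

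The leukocyte markers moved with the receptors. Of 15 tested T and NK cell markers, 10 were called lower, and their summed level over the 17 genes found was 137 to 304 CPM in the NCAM-enriched libraries and 5253 to 5856 CPM in bulk skin. Cd3d, Trac, Cd2 and Klrb1b were at 0 in all NCAM-enriched libraries. Trdc, a constant chain of the gamma delta T cell receptor, had 1 count against 3869. Gzma and Gzmb were also at 0 there, but had only 0 counts and 1 count in bulk skin. Trbc2 had 75.5, 64.1 and 57.3 CPM against 171, 123 and 197 CPM (edgeR adjusted p = 0.0892). In NCAM-enriched library 2, Thy1 reached 166 CPM and Cd7 68.8 CPM, against bulk skin means of 298 and 791 CPM. Fcer1g reached 71.2 CPM in NCAM-enriched library 1, against a mean of 706 CPM. Of 15 Langerhans and myeloid markers, 13 were called lower, and the list summed to 382 to 640.3 CPM against 13677 to 22493 CPM. Cd207, the langerin of Langerhans cells, had 1 count against 2632. Mfge8, not called, had 361, 321 and 75.8 CPM against 530, 481 and 263 CPM (edgeR adjusted p = 0.547). It made up most of the sum in NCAM-enriched libraries 1 and 2. Tyrobp was also not called (edgeR adjusted p = 0.0636). How far the receptor differences go with those of the leukocyte markers was not tested. Fewer leukocytes and less RNA per leukocyte cannot be told apart here. The 12 mast cell and neutrophil markers had 19.01 to 1954 CPM against 442 to 2080 CPM, and 0 of the 5 tested were called by edgeR or DESeq2 (0 at an unadjusted p under 0.05).

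**Figure D4:**
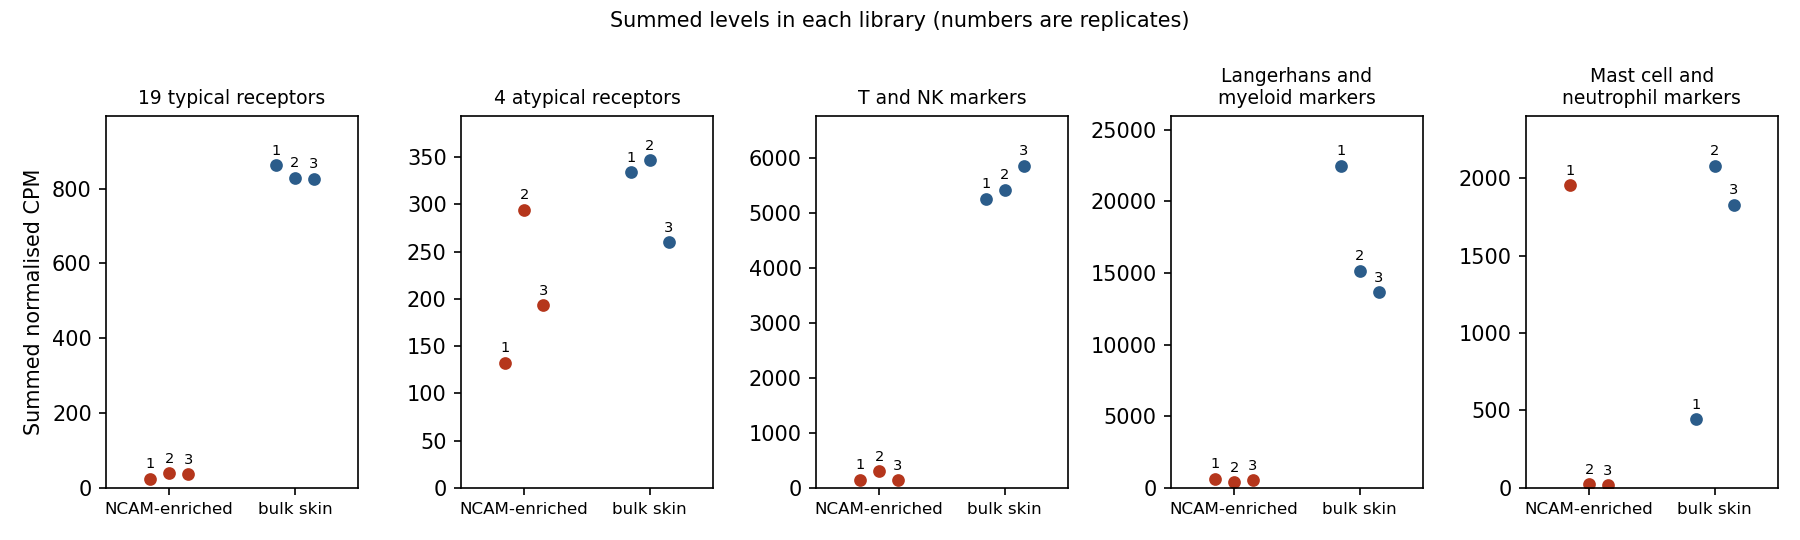
Summed normalised CPM in each library (linear axes from 0, numbers are replicates) of the 19 typical receptors, the 4 atypical receptors and the markers of T and NK cells, of Langerhans and myeloid cells and of mast cells and neutrophils. Typical receptors, at 24.4 to 38.6 CPM against 826 to 862 CPM, and the T and NK and the Langerhans and myeloid lists are separated between the groups. The atypical receptors overlap only through NCAM-enriched library 2 (294 CPM, 249 of it Ackr1), and the mast cell list only through NCAM-enriched library 1 (1954 CPM).

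The machinery downstream of the receptors was lower in part. Of 41 tested genes of receptor signalling and leukocyte migration, 6 were called lower and 0 higher by edgeR (26 and 1 at an unadjusted p under 0.05), and 21 and 1 by DESeq2. Rgs18, a regulator of G protein signalling in blood cells, had 0, 0 and 0.568 CPM against 88.2, 47.1 and 72.9 CPM (edgeR adjusted p = 0.0114), and Itgae, the integrin that tethers T cells to epithelium, had 1.06, 2.32 and 9.65 CPM against 219, 225 and 231 CPM (edgeR adjusted p = 0.0123). Both were without overlap. Of those not called by edgeR, Rgs1 had the highest mean in bulk skin, with 51.7 ± 72.7 against 955 ± 353 CPM (edgeR adjusted p = 0.0714), and DESeq2 called it lower (adjusted p = 0.000206). Gnb1, a G protein subunit, had the highest mean in the NCAM-enriched libraries, with 458 ± 85.9 against 573 ± 146 CPM (edgeR adjusted p = 0.705).

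Of 28 tested genes of NF-kB, interferon and STAT3 signalling, which induces many chemokine genes, edgeR called 0 (3 lower and 1 higher at an unadjusted p under 0.05) and DESeq2 called 1 lower. Nfkbia, the NF-kB inhibitor that NF-kB itself induces, was the most abundant, with 716, 415 and 1479 CPM against 1957, 2193 and 1531 CPM (edgeR adjusted p = 0.295), its highest NCAM-enriched library just below the lowest of bulk skin. Of 16 tested chemoattractants and related genes outside the family names, 2 were called lower. These were Cd74, the invariant chain of MHC class II and a receptor of Mif, at 80.1 ± 75.2 against 7065 ± 2432 CPM (edgeR adjusted p = 0.0191), and Ccrl2, a chemokine-binding receptor, with 0 counts against 425 (edgeR adjusted p = 0.0257). Mif itself had 163, 115 and 215 CPM against 277, 155 and 182 CPM and the groups overlapped (edgeR adjusted p = 0.738).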

How the data were processed

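Smart-seq2 libraries (50 bp single-end reads, no molecular identifiers, no strand information) of 3 NCAM-enriched and 3 bulk skin samples were used. The deposited table holds whole-number counts of reads, not normalised, made by the authors with adapter clipping, removal of abundant sequences, STAR alignment to GRCm38 and featureCounts. The release of the annotation and the strand option: not given in the sources used here. Groups came from the labels. Whether replicates were separate animals is not stated, so p-values measure only the spread between these libraries. The members and lists were chosen with earlier results of these data known.

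The main test was the quasi-likelihood F-test of edgeR 4.0.16 (R 4.3.3), with TMM normalisation, after filterByExpr on the groups, and Benjamini-Hochberg adjusted over 13157 genes. DESeq2 1.42.0, limma-voom (limma 3.58.1), other scalings, filters and dispersions, the replicate number as a block and leaving out each library were alternatives. The values of 1 receptor gene are not reported here, and it is counted among the 62. The code was tested on simulated data. The common biological coefficient of variation was 0.744. SEs were derived from the fold change and F statistic. Log2 fold changes carry the edgeR default prior count of 0.125. A prior count of 2 was used first, and the default, which earlier work on these data also used, was taken after fold changes had been seen. It alters no p-value or call, but it enlarges the fitted fold changes of genes near 0. With 2, that of Xcl1 was -6.73 in place of -8.78, that of Ccr8 -6.91 in place of -7.59 and that of Ackr3 -2.46 in place of -2.50. For genes with 0 to 3 NCAM-enriched counts, pooled ratios with 95% exact intervals or bounds against 3 counts, which do not use the prior count, are therefore given. Intervals and floors cover counting error only.

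Named with values were members that were called, had a mean of at least 5 CPM in either group or at least 10 NCAM-enriched counts (38 of 62). From the lists of receptor signalling, inducing signalling and other chemoattractants, the called genes with the smallest p were taken, at most 2 a list. The most abundant gene not called (by the highest mean in either group) was also taken, and Gnb1 was added after its values were seen. Genes of the cell type marker lists were not chosen by this rule. Nkg7, with the smallest p of the T and NK cell markers, is not among those named there. Exonic lengths, positions and overlaps came from GENCODE M21, which holds 60 of the 62 (not Ccl21b and Ccl21c), and promoters from the RefSeq table (GRCm38.p6), which holds 46. The motifs GGGANNTTCC, TGTGGT, TTCNNNGAA and CAGATG were sought on both strands and TATAAA on the gene's strand, in the 250 bases before the start. TATAAA was found in 33.3% of ligands, 15.8% of receptors and 8.94% of all genes, TTCNNNGAA in 7.41%, 10.5% and 8.13%, and CAGATG in 29.6%, 15.8% and 16.3%.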

Additional observations from a re-analysis of the deposited data

How the results depend on the processing

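No member was called higher under any alternative run. The count of ligands called lower was 4. It was 7 with either DESeq2 or limma-voom, 11 when all genes with at least 1 count were tested, and 0 to 8 without 1 library. The count of receptors called lower was 6, and 0 to 8 without 1 library. Without bulk skin library 1 no member was called by edgeR (2115 genes at an unadjusted p under 0.05), without bulk skin library 2 or 3 only Ccr8, and without NCAM-enriched library 1 Ackr3, Ccl11, Ccl4 and Ccr6 were lost and Ccl7 gained. Over all genes 137 were higher and 204 lower, against 661 and 928 by DESeq2, 351 and 849 by limma-voom, and 769 and 741 when every counted gene was tested. Without 1 library they ran from 0 to 1099 and from 13 to 733. The cause was not tested. With the replicate number as a block, 1 ligand and 1 receptor (Xcl1 and Ccr8) were called, and 50 genes were higher and 92 lower. Libraries with the same number did not deviate together (correlations 0.0226, 0.00025 and -0.00436). Whether the numbers pair them cannot be told from this, because the spread between libraries could hide a shared source.

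The sign turned for genes that were not called. The log2 fold change of Cx3cl1 was -1.07 with limma-voom, -0.47 with the block and -2.47 to 1.68 without 1 library. That of Ccl25 was -0.93, -0.38 and -1.13 to 0.74, and that of Ackr1 -4.26, -4.37 and -9.90 to 1.78. That of Ccl20 was 0.45 with limma-voom and -1.42 to 0.67 without 1 library, and that of Cxcr4 -0.43 and -0.89 to 1.58. The prior count of 2, used before the default was chosen with fold changes in view, gave the same calls. A gene at 0 is known only to 3 counts over a group.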
